A study of Rattus norvegicus with 20 samples.

Results

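In whole rat lung, 41 of 1185 array probes were chosen by their deposited values at Day 35 and in NL: each read higher in all 3 Day 35 arrays than in any of the 5 NL arrays. The condition was met by 54 probes, of which 13 named probes were left out. What is described here is how the remaining 41 probes behaved in the 12 arrays that had no part in choosing them. These were 2 arrays at Day 14, 3 at Day 21, 3 at Day 28, 3 labelled T and a single array titled Normal (Day_0). Against the single Normal array their median difference was 0.09 in T, and -0.19, -0.13 and -0.08 at Day 14, Day 21 and Day 28. A higher mean in T than over these days was found for 36 of the 41, and for 54.7% of all probes tested. The count depended on the arrays used: it was 29 without Day 14 array 8 (47% of all 1185 probes) and 41 without Day 14 array 7 (58.4%). Among the 6 arrays with an interquartile range of 1.4 or more it was 39 (58.2% of all probes). Among the other 5 it was 25 (55.1%). In the fit to all arrays of Day 14, Day 21, Day 28 and T no probe passed the adjusted threshold, and none of the 41 did so in the alternative fits, in which up to 7 of all probes did when Day 14 array 8 was left out.

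The series followed rats over time as pulmonary hypertension with neointimal growth in the lung vessels developed, with total RNA of whole lung on each of 20 arrays. What NL and T stand for and the day of T are not spelled out in the labels, which also state no strain, age, agent or way of inducing disease. Separate animals are not named either, so a p-value here reflects only the variation between arrays of a label, which may be technical. Whole lung mixes vessels with airway, alveolar and blood cells, and in such tissue a change in the number of cells of a type cannot be told apart from a change in RNA per cell.

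In pulmonary hypertension the pressure in the lung arteries is raised and the right side of the heart works against a higher load. A neointima is a layer of smooth-muscle-like cells and matrix that builds up inside the inner lining of a small artery and narrows its channel. It forms gradually, as the cells multiply and lay down matrix. The table used here carries probe identifiers without gene names, and 0 of 1185 identifiers matched a gene identifier, symbol or synonym of the rat RefSeq table. The 41 probes are therefore given by identifier, their genes and sequences are not named here, and the labelled tissue could not be set against marker genes.

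Values are the deposited ones, centred near 0 in each array and log-like, with an unstated base. They are given in deposited units and not as folds. The arrays differed in spread: the interquartile range over all 1185 probes ran from 0.42 to 1.75. It was 1.45 in Day 14 array 8, 1.75 in Day 21 array 11, 1.59 and 1.64 in Day 28 arrays 12 and 14, and 1.5 and 1.54 in T arrays 19 and 20. It was 1.21 in Day 14 array 7 and between 0.49 and 0.66 in the other 4 arrays of these groups, which were Day 21 arrays 9 and 10, Day 28 array 13 and T array 18. The 3 Day 35 arrays, at 1.07 to 1.28, lay between those extremes, and the NL arrays ran from 0.42 to 1.49. At an equal rank, a probe below its array's median reads lower, and a probe above it higher, the wider the array's spread, so the spread is given beside the results it touches. Probes respond unequally to their targets, so high and low readings order the deposited values and not the amounts of different transcripts.

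By construction all 41 probes were higher at Day 35 than in NL, and the following values are a description of the choice. The difference of the Day 35 mean from the NL mean ran from 0.26 to 2.23, with a median of 0.73. It was under 0.5 for 9 probes and above 1 for 9. The 13 probes left out had differences of 1.41 to 4.42 with a median of 2.35, and 4 of the 41 reached the lowest of these. "Modestly higher" thus describes most of the 41, the 4 exceptions being RG169 (2.23), R506 (1.99), R536 (1.54) and RG055 (1.45). Over all 1185 probes, 4.56% met the same condition.

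RG169 had the widest gap between the lowest Day 35 array and the highest NL array, 0.70. It read 3.76, 3.71 and 3.32 at Day 35, against 2.62, 2.60, 0.28, 0.75 and 0.58 in NL arrays 2 to 6. The NL arrays of RG169 therefore fell into a high pair and a low trio. The interquartile range over all probes was 1.36 and 1.49 in the pair and 0.91, 0.42 and 0.42 in the trio. The part of the spread in this split was not tested. R536 followed with a gap of 0.59, R182 with 0.58, R705 with 0.56 and R035 with 0.49. R182 read 1.51, 1.25 and 1.05 at Day 35, where NL ran from -0.34 to 0.47. At the other end, R498 and RG148 were included by a gap of 0.01, RG071 and R175 by 0.02, and R629, R588 and RG132 by 0.03. R498 read 0.84 in its lowest Day 35 array and 0.83 in NL array 2.

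Just outside the condition, R325, R583 and R704 had a gap of exactly 0 and R178, R467, RG380 and RG489 missed it by 0.01. RG380 had 4.99 as its lowest Day 35 value and 5.00 as its highest NL value. The limit thus separates probes whose values differ by 0.01 or 0.02, the resolution of the table being 2 decimals. The highest NL value came from NL array 2 for 27 of the 41 probes, so that array set the limit most often. It was also the NL array in which their median stood highest.

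**Figure D1:**
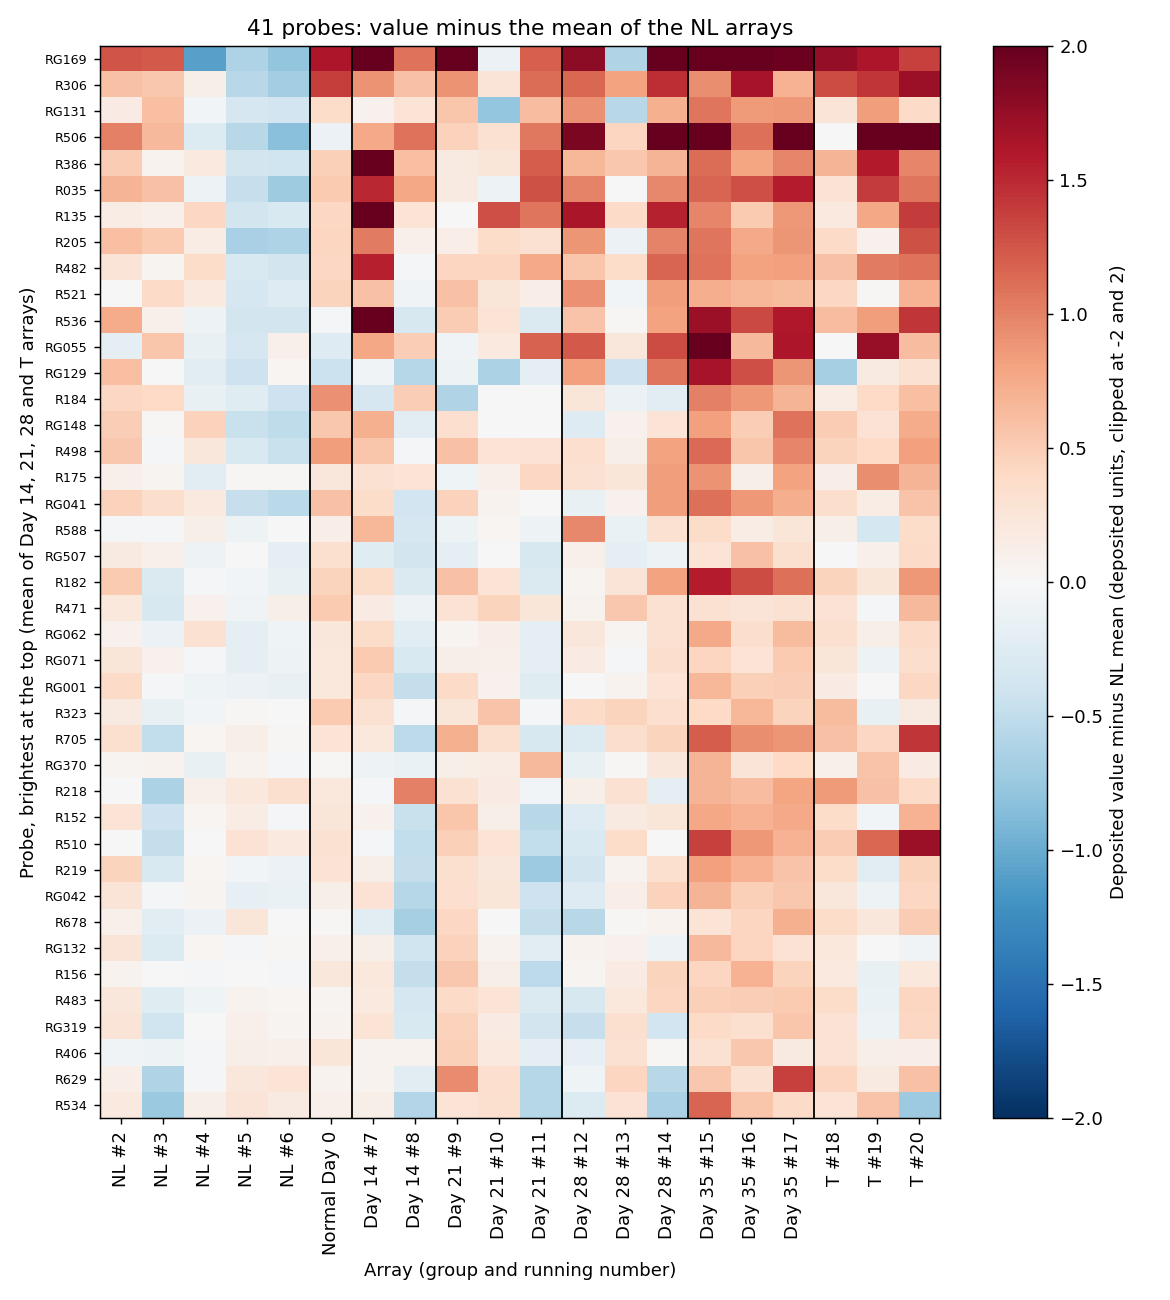
Deposited value minus the mean of the 5 NL arrays for each of the 41 probes (rows, brightest at the top) in each of the 20 arrays (columns, grouped), in deposited units with colours clipped at -2 and 2. The 3 Day 35 columns are red throughout by the choice of probes; Day 14 array 8 and Day 21 array 11 are blue over most of the lower rows, and T array 20 is red over most rows.

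The 41 probes covered dim and bright readings alike. Their NL mean was below 0 for 18 and at 0 or more for 23, and 48.8% of all probes had an NL mean below 0. Over the 11 arrays of Day 14, Day 21, Day 28 and T, the brightest were RG169 (mean 2.69 ± 0.92, SD, n = 11), R306 (2.14 ± 0.42), RG131 (2.07 ± 0.54) and R506 (2.00 ± 0.97). The dimmest were R534 (-0.57 ± 0.48), R629 (-0.38 ± 0.47), R406 (-0.27 ± 0.19) and RG319 (-0.27 ± 0.36). These 4 dim probes were below the middle of a typical array and stood between -0.05 and 0.22 on average at Day 35. No background level comes with the values, so how far these dim probes stood above it is unknown.

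R534 illustrates the dim end. It read 0.68, 0.07 and -0.10 at Day 35, and -0.29, -1.23, -0.37, -0.22 and -0.31 in NL. In T it read -0.21, 0.09 and -1.21, so that T reached from the Day 35 range down to the lowest NL value. At Day 28 it read -0.75, -0.19 and -1.13, and at Day 21 -0.21, -0.17 and -1.06. The values at or below -1.06 came from NL array 3, Day 14 array 8 (-1.07), Day 21 array 11, Day 28 array 14 and T array 20, each with an interquartile range of 1.45 or more. Day 28 array 12 and T array 19 were also of wide spread, at 1.59 and 1.5, and read -0.75 and 0.09.

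R506 illustrates the bright end. It read 3.19, 1.87 and 3.23 at Day 35 and 1.78, 1.42, 0.50, 0.22 and -0.07 in NL. In T it read 0.76, 3.16 and 3.54, and at Day 28 it read 2.66, 1.20 and 3.15. Its Day 21 values were 1.23, 1.08 and 1.82, its Day 14 values were 1.52 and 1.86, and the Normal array read 0.65. The low values within T and Day 28 were those of T array 18 and Day 28 array 13, the arrays of narrow spread, and R506 had the largest SD of the 41 probes over these 11 arrays.

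The median of the 41 probes in each array gives the course of the whole set. It was 0.35, 0.13, 0.03, -0.06 and -0.05 in NL arrays 2 to 6 and 0.35 in the Normal array. The Day 14 arrays gave 0.45 and -0.01, the Day 21 arrays 0.34, 0.32 and 0.09, and the Day 28 arrays 0.21, 0.25 and 0.39. The Day 35 arrays gave 0.95, 0.60 and 0.71 and the T arrays 0.38, 0.41 and 0.79. The arrays of Day 14 to Day 28 lay on both sides of the Normal array, and T array 20 lay among the Day 35 arrays. The mean of the array medians was 0.75 ± 0.18 (SD, n = 3) for Day 35, 0.53 ± 0.23 (n = 3) for T and 0.28 ± 0.09 (n = 3) for Day 28. For Day 21 it was 0.25 ± 0.14 (n = 3), for Day 14 0.22 ± 0.33 (n = 2) and for NL 0.08 ± 0.17 (n = 5). The steps between Day 14, Day 21 and Day 28 were smaller than the SD within these groups.

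The position of the probes within each array does not depend on its scale. The median percentile of the 41 probes among all 1185 was 65.9 in the Normal array and 50.6 ± 8.3 (SD, n = 5) in NL. The Day 14 arrays gave 65.5 and 49.7, the Day 21 arrays 73.1, 69.7 and 53.2, the Day 28 arrays 57.6, 69.6 and 62.4, and the T arrays 73.0, 62.9 and 72.8. The Day 35 arrays gave 77.8, 74.5 and 73.5, above each array of the other groups, an order that the choice favours. The lowest of them was close to Day 21 array 9 at 73.1 and T array 18 at 73.0. On this scale Day 21 array 9 stood as high as T arrays 18 and 20, and the lowest positions outside NL were those of Day 14 array 8, Day 21 array 11 and Day 28 array 12, all of wide spread. The part of the spread in these positions was not tested.

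**Figure D2:**
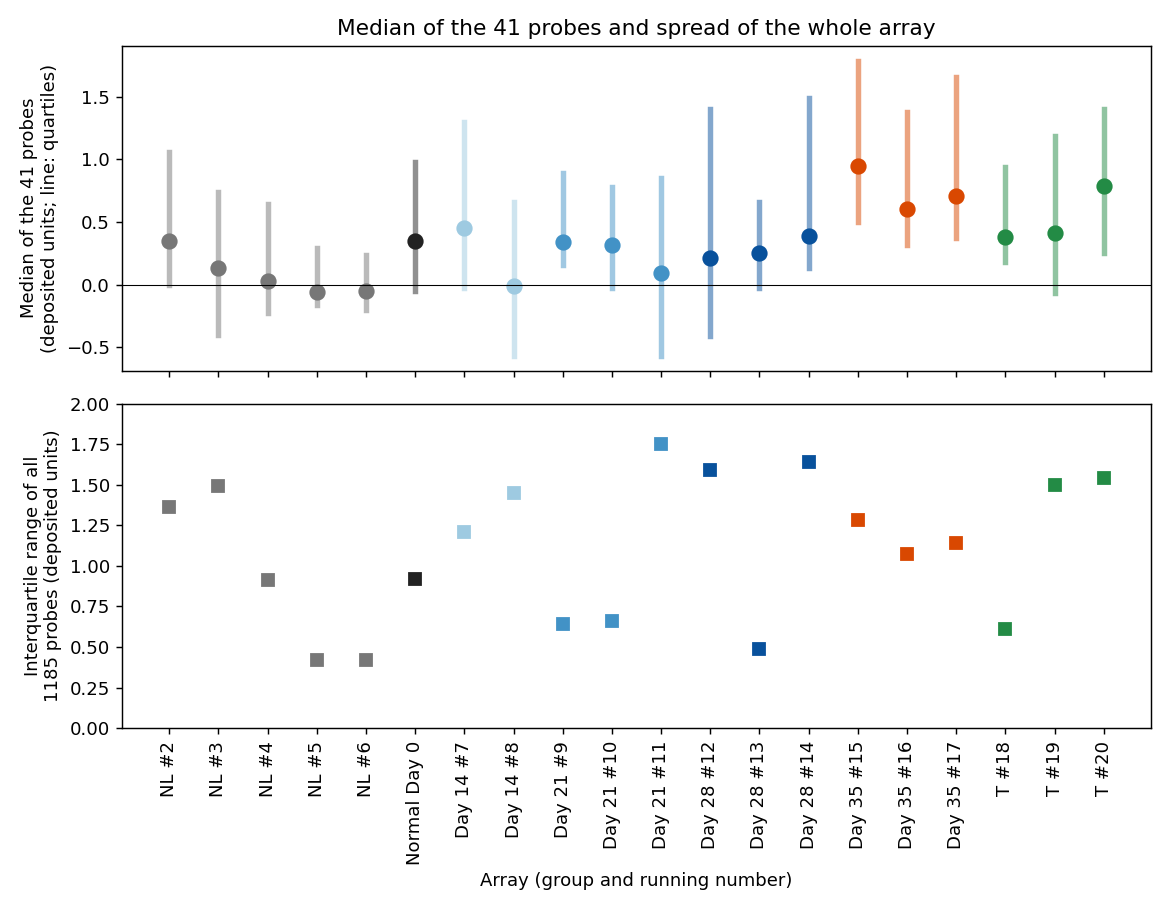
Upper panel: median of the 41 probes in each array (points) with their quartiles (lines), in deposited units; lower panel: interquartile range of all 1185 probes in the same array. The Day 35 points at 0.60 to 0.95 are the highest apart from T array 20 at 0.79, and the spread of the arrays varies within Day 14, Day 21, Day 28 and T.

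The dim and the bright probes of the set differed in which arrays were high. For the 18 probes with an NL mean below 0, the median was 0.20 in Day 21 array 9 but -0.60 in Day 14 array 8, -0.59 in Day 21 array 11 and -0.45 in Day 28 array 12. In T it was 0.10, -0.18 and 0.13, and in the Normal array it was -0.05. For the 23 other probes the median was 0.53 in Day 14 array 8, 0.78 in Day 21 array 11 and 1.34 in Day 28 array 12, and in T it was 0.76, 1.15 and 1.39. The division by NL mean was made after the values were seen. Of the 18 dim probes, 16 read above every NL array in Day 21 array 9, and 1 did so in Day 28 array 12. Of the 23 brighter probes, 6 and 14 did so in the same arrays. Over all probes the shares went the same way: 19.7% and 8.48% of the 578 with an NL mean below 0, and 6.43% and 17.3% of the 607 others.

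The question that the choice of probes leaves free is whether they differed between groups that it did not use. A linear model over the 11 arrays of Day 14, Day 21, Day 28 and T was fitted to 1149 probes, all 41 among them. The limma moderated F-test for any difference among the 4 groups called 0 of 41 probes and 0 of all probes (background 0%), with a smallest adjusted p of 0.9994. An unadjusted p under 0.05 was found for 1 of the 41 probes and for 7 of all probes (0.609%); 5% of 1149 probes is 57.45.

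R510 was that 1 probe (F = 5.07, limma unadjusted p = 0.0202, adjusted p = 0.9994). It read -0.40 and -0.86 at Day 14, 0.11, -0.10 and -0.87 at Day 21, and -0.68, -0.01 and -0.38 at Day 28. In T it read 0.13, 0.78 and 1.35, above every one of those 8 arrays, and at Day 35 it read 1.0, 0.50 and 0.33. The Normal array read -0.06, and the NL arrays ran from -0.84 to -0.08. R510 was thus at about the NL level through Day 28 and at about the Day 35 level in T. R306 and R678 had the next smallest p in this test, 0.0873 and 0.134.

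The comparison of T with the mean of Day 14, Day 21 and Day 28 also used no array of the choice. Of the 41 probes, 36 had a higher mean in T (87.8%), as did 54.7% of all probes tested. Their median difference was 0.21, against 0.02 over all probes, with a range of -0.28 to 1.18 and a median standard error of 0.27. No probe was called by limma, of the 41 or of all 1149 (background 0%, smallest adjusted p = 0.9995). An unadjusted p under 0.05 was found for 4 of the 41 (9.76%) and for 17 of all probes (1.48%). The 41 probes share arrays and correlate with each other, so 36 of 41 is not 41 separate observations.

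The size of this difference depended on which arrays entered. Among the 6 arrays with an interquartile range of 1.4 or more (2 of T), 39 of the 41 probes were higher in T, with a median difference of 0.34. Among the other 5 arrays (1 of T) 25 were higher, with a median difference of 0.05. Over all 1185 probes the shares higher in T were 58.2% and 55.1%. This division was made after the values were seen. It also puts Day 14 array 7 (interquartile range 1.21) and Day 14 array 8 on opposite sides, so the spread of the arrays and the gap between these 2 cannot be told apart. Without Day 14 array 8, in which the 41 probes were lowest, the median difference was 0.09 and 29 probes were higher in T (47% of all probes). Without Day 14 array 7 the median difference was 0.30 and all 41 were higher (58.4% of all probes).

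R510 had the largest difference, 1.18 (SE 0.30, 95% interval 0.50 to 1.85, limma unadjusted p = 0.00282, adjusted p = 0.9995). Within the arrays of wide spread the difference was 1.82 and within the others 0.27. The T arrays of this probe therefore ranged widely while lying above all Day 14 to Day 28 arrays.

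R306 was the bright probe in this group. It read 2.39, 2.51 and 2.80 in T, where Day 14 read 1.98 and 1.67, Day 21 read 1.99, 1.35 and 2.20, and Day 28 read 2.23, 1.89 and 2.56. Its difference was 0.60 (SE 0.24, 95% interval 0.08 to 1.12, limma unadjusted p = 0.0275, adjusted p = 0.9995), and it was alike in the arrays of wide spread and in the other 5, at 0.57 and 0.54. The Normal array, at 2.47, lay inside the T range, and Day 35 read 2.02, 2.74 and 1.78. All T arrays of R306 thus lay above the Day 14 and Day 21 arrays, and Day 28 array 14 lay among them.

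R705 and R678 were the other probes with an unadjusted p under 0.05. R705 read 0.32, 0.15 and 1.16 in T against a range of -0.78 to 0.44 in the 8 arrays of Day 14 to Day 28, a difference of 0.72 (SE 0.31, limma unadjusted p = 0.0410, adjusted p = 0.9995). R678 read 0.29, 0.15 and 0.43 in T against a range of -0.74 to 0.34, a difference of 0.57 (SE 0.24, limma unadjusted p = 0.0360, adjusted p = 0.9995). For both, Day 21 array 9 reached into the T range, with 0.44 and 0.34, and for R705 so did Day 28 array 14, with 0.18. The differences were 1.17 and 0.83 among arrays of wide spread and 0.23 and 0.36 among the others. R506 had a difference of 0.69 with an interval from -0.58 to 1.95, so it was large but not precise.

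The 5 probes with a lower mean in T were R135, R588, R323, RG129 and R521, and for none did the interval leave out 0. R135 differed by -0.28 (SE 0.47), R588 by -0.12 (SE 0.29) and R323 by -0.04 (SE 0.22). R135 read 2.74 in Day 14 array 7, its highest value in the series, and 0.80 in Day 14 array 8. In T it read 0.72, 1.30 and 1.92, and at Day 35 1.5, 1.04 and 1.39. R135 therefore had means of 1.77 ± 1.37 (SD, n = 2) at Day 14 and 1.31 ± 0.24 (n = 3) at Day 35, and it was higher than NL in all groups without a particular place for Day 35.

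**Figure D3:**
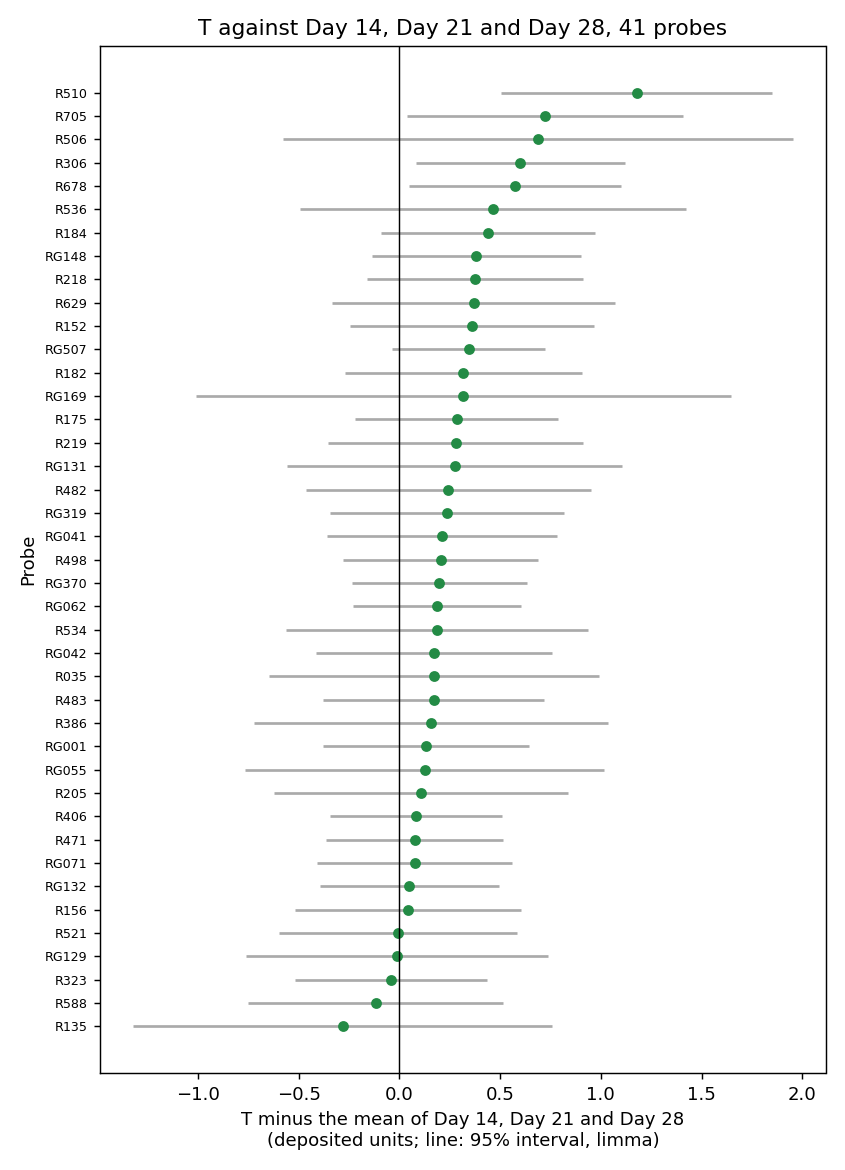
T minus the mean of Day 14, Day 21 and Day 28 for each of the 41 probes (points) with the 95% interval of limma (lines, not adjusted for the number of probes), in deposited units. R510 is at the top with 1.18, R135 at the bottom with -0.28, and 36 points lie to the right of 0.

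Among the days themselves no probe was called. The limma counts of calls were 0 of 41 probes and 0 of 1149 (background 0%) for Day 21 against Day 14, for Day 28 against Day 14 and for Day 28 against Day 21. At an unadjusted p under 0.05 these comparisons gave 0 of the 41 each, and 13 (1.13%), 15 (1.31%) and 2 (0.174%) of all probes. The median difference of the 41 probes was 0.09 from Day 14 to Day 21, 0.17 from Day 14 to Day 28 and 0.09 from Day 21 to Day 28. Each is below 0.20, the pooled SD of the array medians of the 41 within Day 14, Day 21, Day 28 and T. Without Day 14 array 8, which leaves a single Day 14 array assumed to vary like the others, the medians against Day 14 were -0.18 for Day 21 and -0.09 for Day 28. The means were ordered Day 14, Day 21, Day 28 from low to high for 13 of the 41 probes (31.7%), while 12.5% of all probes had that order. The opposite order held for 2 and was not counted over all probes. Neither order was counted without Day 14 array 8, the array without which the medians against Day 14 fell below 0.

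R506, R386 and RG129 had the extreme differences between days. R506, whose values are given above, was 0.96 higher at Day 28 than at Day 21 (SE 0.69, 95% interval -0.56 to 2.48). R386 read 3.41 and 1.41 at Day 14, 0.98, 1.05 and 2.01 at Day 21, and 1.47, 1.35 and 1.49 at Day 28. It differed by -1.06 between Day 21 and Day 14 (SE 0.53, 95% interval -2.24 to 0.12), and the value of 3.41 in Day 14 array 7 stood apart from all others, Day 35 (1.92, 1.60 and 1.79) included. RG129 read 0.80 and 0.30 at Day 14, 0.77, 0.24 and 0.68 at Day 21, 1.70, 0.46 and 1.95 at Day 28, and 0.21, 1.06 and 1.18 in T. It was 0.82 higher at Day 28 than at Day 14 (SE 0.46, 95% interval -0.19 to 1.83). RG129 was the only one of the 41 whose T mean, 0.82, lay below its NL mean, 0.87, and its Day 35 values of 2.53, 2.16 and 1.75 overlapped with Day 28 array 14 and no other array.

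Day 14 array 7 was high for several bright probes of the set. R536 read 2.42 there and 0.07 in Day 14 array 8, R482 read 2.12 and 0.53, and R035 read 2.39 and 1.65. Both arrays carry the same label, and their values for R536 enclosed all those of Day 21 and Day 28. The Day 14 means of these probes therefore rest on a pair of arrays that lay far apart.

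The same probes can be set against the NL arrays, with the reservation that NL values had to be low for a probe to be chosen, which favours readings above NL in any other array. No overlap between T and NL, with all T arrays the higher, was found for 10 of the 41 (24.4%), where 3.04% of all probes had none. The 10 were RG169, R705, R482, R510, R218, R386, RG370, R306, R406 and R175. The count was 3 for Day 14 (2.87% of all probes), 3 for Day 21 (1.94%) and 5 for Day 28 (1.69%). The Day 14 probes were R035, R386 and R175, the Day 21 probes were R482, RG370 and R471, and the Day 28 probes were R482, R386, R323, R306 and R175. The groups share the NL arrays, so these counts are not separate evidence.

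The group counts turned on single arrays, and with fewer arrays having to pass, the share of all probes rose too. Without Day 14 array 8 the Day 14 count was 21 (16.5% of all probes), and without Day 14 array 7 it was 6, or 14.6% of the 41 where 15.7% of all probes passed. Without Day 21 array 11 the Day 21 count was 9 (5.57% of all probes), and it was 4 without array 9 (2.62%) or array 10 (2.7%). The Day 28 count was 15 without Day 28 array 13 (5.32%), 8 without array 12 (3.12%) and 5 without array 14 (2.19%). The T count was 15 without T array 18 (6.5%), 20 without array 19 (5.82%) and 11 without array 20 (3.71%). Set against NL arrays 2 and 3 only, the T count was 14, and 5.82% of all probes passed.

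By array, the share of the 41 above the highest NL value ranged widely. It was 35 probes in T array 20 (16.5% of all probes), 26 in Day 28 array 14 (13.6%), 22 in Day 21 array 9 (12.9%), 22 in T array 18 (13.8%) and 21 in Day 14 array 7 (16.5%). It was 17 in T array 19 (17% of all probes), 16 in the Normal array (12.7%), 15 in Day 28 array 12 (13%), 13 in Day 28 array 13 (17.6%), 11 in Day 21 array 11 (18.4%) and 10 in Day 21 array 10 (9.62%). The lowest count was 6, in Day 14 array 8 (15.7%), and it was the only array in which the share of the 41 was below that of all probes. The Normal array thus lay in the middle of the day arrays by this count.

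**Figure D4:**
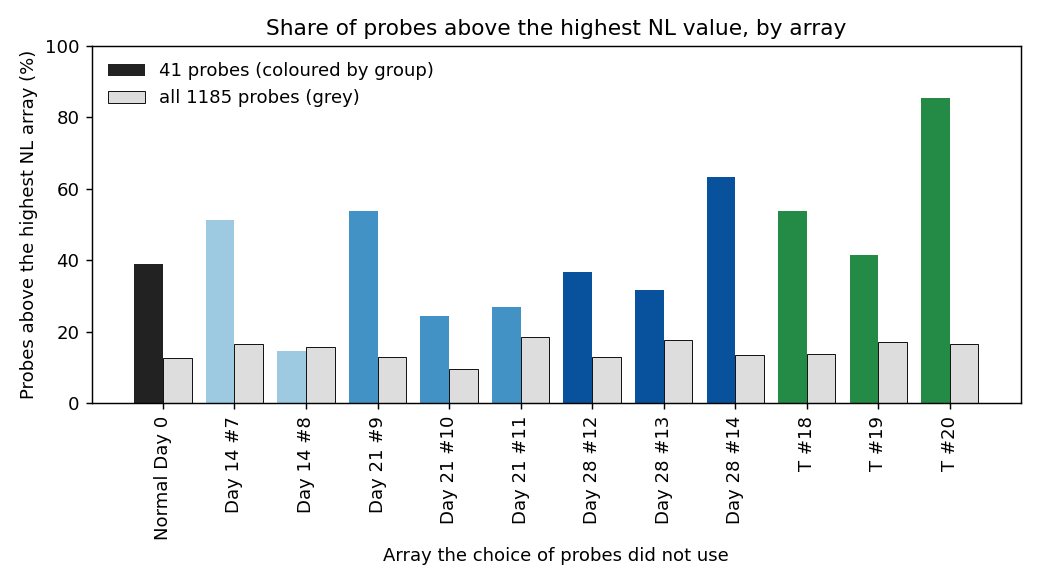
Percent of the 41 probes (coloured by group) and of all 1185 probes (grey) that read above the highest of the 5 NL arrays, for each of the 12 arrays that the choice did not use. T array 20 is highest, with 35 of 41 probes, and Day 14 array 8 is lowest, with 6 of 41.

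No probe was above the highest NL value in all 12 of these arrays; 3 of all 1185 probes were. R482 came closest, with 11 of 12. It read 0.98 in the Normal array, 2.12 and 0.53 at Day 14, 1.0, 1.0 and 1.33 at Day 21, 1.13, 0.94 and 1.73 at Day 28, and 1.16, 1.61 and 1.66 in T, where the highest NL array read 0.93. Day 35 read 1.65, 1.38 and 1.39, so R482 was at much the same level in T as at Day 35. R306 and R175 were above in 10 arrays and R386 in 9.

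R219 was at the other end, above the highest NL value in 0 of 12 arrays. It read 0.19 in the Normal array, 0.02 and -0.57 at Day 14, 0.22, 0.13 and -0.83 at Day 21, -0.47, -0.03 and 0.23 at Day 28, and 0.27, -0.31 and 0.35 in T. NL array 2 also read 0.35, and Day 35 read 0.72, 0.60 and 0.47. The lowest Day 35 value of R219 exceeded the highest value of any other array by 0.12, which is less than the SD of 0.28 in NL. RG132 was above NL in 1 of 12 arrays, and RG129 and RG507 in 2.

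The Normal array had no part in the choice and offers a reference that was not selected to be low. It is a single array, so no test was made. Against it, the 41 probes had a median difference of 0.09 in T, and it was -0.08 at Day 28, -0.13 at Day 21 and -0.19 at Day 14, where all probes had medians of -0.12, -0.17, -0.10 and -0.13. Every array of the group lay above the Normal array for 5 of the 41 probes at Day 14 (18.7% of all probes), 4 at Day 21 (11.1%), 6 at Day 28 (12.7%) and 11 in T (12.2%). In T that is 26.8% of the 41, and in the day groups the shares were close to the background or below it. Every Day 35 array lay above the Normal array for 32 of the 41 (16.9% of all probes), the Day 35 values having been chosen as high.

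The highest Normal values among the 41 were those of RG169 (2.98), R306 (2.47) and RG131 (2.14), and the lowest those of R629 (-0.45), R534 (-0.39) and R483 (-0.25). RG169, R306 and RG131 were also the brightest over the 11 arrays of Day 14, Day 21, Day 28 and T. R506, next in those arrays with a mean of 2.00, read 0.65 in the Normal array. RG131 read 2.84, 2.62 and 2.64 at Day 35, 2.37 in its highest NL array, and 2.68 and 2.48 in Day 28 arrays 12 and 14 but 1.21 in array 13. R184 read 1.70 in the Normal array, close to Day 35 (1.79, 1.66 and 1.46), whereas it read 0.45 to 1.28 at Day 14, 0.18 to 0.78 at Day 21, 0.56 to 1.03 at Day 28 and 0.94 to 1.39 in T. R184 was thus higher in the Normal array than in each of the 11 arrays of these groups. RG055 showed the opposite order, with -0.08 in the Normal array, 0.95 and 0.67 at Day 14, 1.4, 0.40 and 1.49 at Day 28, and 2.24, 0.83 and 1.80 at Day 35.

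Which group was highest differed among the probes, with T leading. Of Day 14, Day 21, Day 28 and T, the highest mean was in T for 27 of the 41 (65.9%; 24.98% of all probes), at Day 28 for 7 (17.1%; 16.8%), at Day 14 for 4 (9.76%; 27.1%) and at Day 21 for 3 (7.32%; 31.1%). The lowest mean was at Day 14 for 22 probes, at Day 21 for 15, at Day 28 for 4 and in T for 0. The lowest group was not counted over all probes or without Day 14 array 8. These counts therefore do not show a trait particular to the 41. Without Day 14 array 8 the count highest in T was 16 (19.1% of all probes). It was 25 among the 6 arrays with an interquartile range of 1.4 or more (32.7% of all probes) and 13 among the other 5, Day 14 array 7 included (15.4%). T nevertheless stayed below Day 35 for 35 of the 41, an order that the choice favours. The 6 with a higher mean in T than at Day 35 were R482, R510, R386, R306, R135 and R471.

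The 41 probes varied together only in part. Over the 12 arrays, Pearson's r between pairs of them had a median of 0.28 across 820 pairs, and 71.7% of pairs were above 0, while the median over all pairs of the 1185 probes was 0.03. R705 followed the median of the other 40 most closely (r = 0.89), then RG148 (0.83), R182 (0.81), RG062, RG042 and RG001 (0.79). R218 (r = -0.27), RG055 (-0.10), RG370 (0.00), R534 (0.00), R184 (0.03) and RG131 (0.03) did not follow it. These correlations are descriptions over 12 arrays that share their spread between probes.

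R218 shows how such a probe differed. It read 0.66 in Day 14 array 8, where most of the 41 were low, and -0.37 in Day 14 array 7. In T it read 0.51, 0.25 and 0.04, and at Day 21 and Day 28 all 6 values lay between -0.54 and -0.04. Outside the set, RG043 (r = 0.88), R542 (0.87) and R068 (0.87) had the pattern most like the median of the 41. None of these 3 met the Day 35 condition: their lowest Day 35 values were below their highest NL values by 0.28, 0.06 and 0.46.

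The identifiers give the only other property shared by the probes. The prefix RG was carried by 14 of the 41 (34.1%) and by 40.8% of all probes, so neither prefix stood out. There were 4 pairs of neighbouring numbers within the 41: R218 with R219, R482 with R483, RG041 with RG042 and RG131 with RG132. Another 4 pairs joined a probe of the 41 (R510, R629, R678 or R705) to a left-out probe. Of these, R510, R678 and R705 are described above for T. Neighbouring pairs were not counted over all probes. What the numbering reflects is not given in the sources used here. RG041 and RG042 varied together over the 12 arrays (r = 0.85) at different levels, with means of 0.61 and -0.09. For R482 and R483 r was 0.32, near the median of 0.28 over all pairs of the 41. It was -0.05 for R218 and R219 and -0.09 for RG131 and RG132.

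Between the ends given by R482 and R219, the other probes filled the range. R156, R323, R471 and RG169 read above the highest NL value in 8 of the 12 arrays, R035, R135, RG370, R521 and R406 in 7, and RG055, R510, R705 and R506 in 6. R498, R588, R629, R483, RG319 and R534 did so in 5, and RG042, R218, R536, R205, RG131 and RG148 in 4. R184, RG001, RG041, R182, RG071, R678, RG062 and R152 did so in 3. R471 had Day 35 values close together, at 0.27, 0.23 and 0.28, and read 0.25, -0.07 and 0.61 in T and 0.49 in the Normal array. Its Day 35 values exceeded NL but lay in the middle of the 12 arrays, which ran from -0.14 to 0.61. The median probe of the 41 was above NL in 5 of the 12 arrays, and the median of all probes was 1.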

How the data were processed

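Total RNA of whole rat lung was measured on 20 arrays. The authors' deposited values are a score per probe, log-like and centred near a median of 0 in each array (array medians -0.01 to 0); their scale, base, platform, background correction and normalization: not given in the sources used here. Values were used as they are. Groups came from the titles. The 41 probes, the tests and the alternatives were chosen with earlier results of these data known.

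Probes above the 25th percentile of the 11 arrays (-0.33) in at least 3 of them entered a linear model with empirical Bayes variances (limma 3.58.1 under R 4.3.3, 7 residual degrees of freedom), two-sided, with Benjamini-Hochberg adjustment over all 1149 probes and a threshold of 0.05. Day 35 and NL were kept out because they had served to choose the probes. A run on simulated data checked the estimates of the fit, with probes drawn independently and without a spread shared within an array. It does not tell how often differences of the size seen here would be called. Figures were drawn with matplotlib 3.10.9. Probes named are those at the extremes of the gap, level, difference, p, Normal value and likeness, by a fixed rule; narrow-gap and outside probes are given by their gap, and R482, R219, R218, R184, RG055, RG129, R386, R471, R536 and R035 were chosen for their values in every array after these were seen. The planned gene lists and markers could not be used without gene names. Alternatives covered scaling, filter, variance model, groups in the fit and leaving out each array. Splits by spread and the T count without NL arrays 4 to 6 were added after seeing the data.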

Additional observations from a re-analysis of the deposited data

Results flagged for a closer look

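In the 5 NL arrays, 43 measures were examined for a single array far from the rest, and 3 were found. The usual chance rate of about 5% does not hold here. The probes were chosen by their highest NL value, and the measures share the same 5 arrays. R175 read 0.01 in NL array 4, and the next lowest NL array read 0.24. R534 read -1.23 in NL array 3, and the next read -0.37. RG001 read 0.43 in NL array 2, and the next highest read 0.01. The highest NL value served to choose the probes, so the value of RG001 in NL array 2 set its gap.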

How the results depend on the processing

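No paired analysis was possible because no number is shared by arrays of different groups. Of 259 alternative values, 28 turned their sign against a difference or moved beyond 1.5 times (counts) or 1 SD between arrays (levels). The other 231 stayed within those limits, and 3 of them near 0 changed sign. None of the 41 probes was called in any fit. Over all probes, the fit to all 6 groups called 1 for T against the mean of the days; leaving out an array gave 0 to 4 calls for any difference, 0 to 1 for T against the days, 0 to 7 for Day 28 and for Day 21 against Day 14, and 0 in every fit for Day 28 against Day 21. The median difference of the 41 turned to -0.02 (quantile normalization), -0.081 (common interquartile range) and -0.015 (without Day 21 array 11) for Day 28 against Day 21, to -0.093 for Day 28 against Day 14 and -0.18 for Day 21 against Day 14 without Day 14 array 8, and to -0.07 for the latter without Day 21 array 9. Leaving out an array gave -0.015 to 0.175 for Day 28 against Day 21, -0.093 to 0.447 for Day 28 against Day 14 and -0.18 to 0.40 for Day 21 against Day 14. For T against the days it stayed above 0, from 0.09 to 0.30 when an array was left out. Leaving out an array gave 29 to 41 probes higher in T, 16 to 29 highest in T, and 13 highest in T among the 5 arrays with an interquartile range under 1.4. The rule itself gave 42 to 106 probes without 1 array, 106 without NL array 2, 73 and 83 without Day 35 arrays 16 and 17; all 41 were among them by construction. It gave 60 after quantile normalization and 51 with a common interquartile range, with 33 and 32 of the 41 among them, and 32 with the Normal array added to NL. Counts above every NL array without 1 array were 6 to 21 at Day 14 (15.7% to 16.5% of all probes), 4 to 9 at Day 21 (2.62% to 5.57%), 5 to 15 at Day 28 (2.19% to 5.32%) and 11 to 20 in T (3.71% to 6.5%); they were 1 at Day 14 with a common interquartile range and 9 at Day 28 after quantile normalization. The Day 21 median was 0.39 with a common interquartile range. Leaving out an array moved the group medians to 0.01 to 0.12 in NL, -0.01 to 0.45 at Day 14, 0.21 to 0.33 at Day 21, 0.23 to 0.32 at Day 28, 0.66 to 0.83 at Day 35 and 0.40 to 0.60 in T, and the median difference from the Normal array to -0.49 to 0.02, -0.24 to 0.02, -0.12 to -0.02 and 0.01 to 0.13 in Day 14, Day 21, Day 28 and T. Where a value moved, the cause was not tested. The number of arrays limits the precision.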
